A study of Homo sapiens with 4 samples.

Results

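Cyclins are the regulatory subunits that switch on the cyclin-dependent kinases, and the 9 cyclin genes described here were those of the classes that time the cell division cycle: CCNA2, CCNB1, CCNB2, CCND1, CCND2, CCND3, CCNE1, CCNE2 and CCNF. They were chosen by name, as the probes other than controls whose transcript identifier led to one of these symbols, and they made up 9 of the 24154 genes with a named probe on the arrays. There were 11 probes for the 9 genes, with 1 probe for each of 7 genes and 2 probes each for CCNB1 and CCNE2. The study asked which transcripts the RNA-binding protein TIA1 binds in an esophageal squamous cell carcinoma (ESCC) cell line, KYSE180, an established human line grown without any treatment named in the labels. In ribonucleoprotein immunoprecipitation (RIP), an antibody pulls down a protein with the RNA attached to it. RNA from anti-TIA1 immunoprecipitates of cytoplasmic lysate (TIA1 RIP, replicates 1 and 2) and total RNA of the same line (the input, replicates 1 and 2) were hybridized to 4 single-colour arrays, 2 per group. No gene was altered in either group, so no sample lacked TIA1, and RNA from IgG immunoprecipitates was not analysed here.

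D-type cyclins (CCND1, CCND2, CCND3) partner CDK4 and CDK6 early in G1 and are known for passing growth signals to the retinoblastoma protein. E-type cyclins (CCNE1, CCNE2) partner CDK2 at the start of DNA replication, cyclin A2 (CCNA2) partners CDK2 in S phase and CDK1 later, and B-type cyclins (CCNB1, CCNB2) partner CDK1 at mitosis. Cyclin F (CCNF) activates no kinase and is instead the substrate-binding subunit of a ubiquitin ligase. TIA1 is known to bind U-rich stretches of RNA, often in 3′ untranslated regions (UTRs), and to hold mRNAs back from translation in stress granules.

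Because TIA1 is known for U-rich RNA, the 3′ UTR of each cyclin was read from the reference annotation (GENCODE canonical transcripts on GRCh37, the build in the array headers), and its most U-rich window of 30 bases was located. Members from different classes are shown here as the transcript strand reads, 5′ to 3′, with T for U and runs of 3 or more T in capitals. These windows are a description of the reference sequence and were not measured as binding sites. In the study's pulldown with CCNA2 fragments, TIA1 binding was reported for the 5′ UTR and the coding region but not for the 3′ UTR.
CCNA2, chr4:122737968-122737997, minus strand, exon 8 of 8: tcttcTTTTTTcttcTTTTcactggcTTTT
CCNB1, chr5:68474021-68474050, plus strand, exon 9 of 9: TTTTcaTTTTggTTTTgtgTTTTggttaat
CCND1, chr11:69468174-69468203, plus strand, exon 5 of 5: tgccTTTTTTgtagTTTTTTTTTTTTTTat
CCND3, chr6:41903092-41903121, minus strand, exon 5 of 5: tataaattcctcTTTgcTTTgcTTTctgct
CCNF, chr16:2508255-2508284, plus strand, exon 17 of 17: TTTTTTTTTTTTTTTTTTggagacagTTTT
The windows of CCNA2 and CCNB1 held 20 U of 30 bases, that of CCND1 held 23, that of CCNF 22 and that of CCND3 16. Over the 11499 genes with such a 3′ UTR, the median gene reached 18 U in its best window, and the 10th and 90th percentiles were 12 and 24. GAPDH, the reference mRNA of the study, reached 10.

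Over its whole length the 3′ UTR was 39.7% U in CCNB1, 38.1% in CCNB2, 36.2% in CCNE2 and 36.0% in CCNA2. It was 31.7% U in CCND2, 28.9% in CCND1, 28.4% in CCNE1, 25.3% in CCND3 and 24.2% in CCNF. The median of the 11499 genes was 29.4%, the 90th percentile was 36.2%, and GAPDH stood at 15.4%. The B-type cyclins thus lay above the 90th percentile and the D-type cyclins, other than CCND2, below the median.

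Short motifs were then counted on the transcript strand. AUUUA, the core of AU-rich elements, was found 10 times in CCNE2, 8 times in CCND2, 7 times in CCND1, 4 times in CCNB1, 3 times in CCNA2, 2 times in CCND3 and 1 time in CCNF, and at no place in CCNB2 and CCNE1. Of the genes whose 3′ UTR was within 10% of that of CCNB1 in length (614 bases), 55.6% held AUUUA, and for CCNA2 (1194 bases) the share was 77.6%. Runs of 5 or more U (UUUUU) numbered 28 in CCND2, 14 in CCND1, 9 in CCNA2, 7 in CCNE2, 4 in CCNE1, 3 in CCNF, 2 in CCNB1 and 2 in CCNB2, and none lay in CCND3. Of genes with a 3′ UTR about as long as that of CCND3 (988 bases), 86.2% held such a run. For CCND1 (3192 bases) that share was 98.8%, so the high counts of CCND1 and CCND2 went with long 3′ UTRs. CCNF, with the lowest U content of the members, still held a long T run, that shown in its window.

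The arrays differed from each other before any gene was considered. Total RNA replicate 2 was dim, with a 75th percentile signal of 69.9 beside 714 to 1514 on the rest, and 32.2% of its spots were well above background against 45.8% to 48.4% elsewhere. The SD over genes of the log2 difference between the replicates was 0.89 for TIA1 RIP and 2.00 for total RNA. The ratios of the members are therefore also given against total RNA replicates 1 and 2 apart. All 10 squamous epithelium markers were detected on all 4 arrays, as the label of the line has it. Of the markers of fibroblasts and endothelium, none of 5 and 1 of 4 were detected on all arrays, with COL1A2, COL3A1, PECAM1 and KDR detected on none. The others were detected on some or all arrays: VWF on 4, COL1A1 and CDH5 on 3, LUM on 2 and DCN on 1. Of leukocyte markers, PTPRC and CD14 were detected on all 4 arrays and CD3E on none. Having only 2 arrays in a group limits how precise any value can be.

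Levels are log2 signals minus the 75th percentile of the array, so that 0 marks that percentile, and they place a transcript among the others on its array without measuring how much RNA was pulled down. On this scale no cyclin passed the test. Of the 9 members, 8 passed the filter on dim probes, 0 of them were called in either direction by limma with Benjamini-Hochberg adjustment over 13039 genes, and 0 reached an unadjusted p-value under 0.05. Over all genes 0.0% were called in either direction, while an unadjusted p-value under 0.05 was reached by 1.1% in the higher and 4.02% in the lower direction. In these bulk extracts, the share of cells in a cycle phase and the amount of a cyclin mRNA per cell cannot be told apart.

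Against the mean of the total RNA arrays, 7 of the 8 cyclins had a log2 ratio above 0, where 48.6% of all genes did, and 1, CCNF, had one below 0. The member median was 0.41 and that of all genes was -0.036. Against total RNA replicate 1 alone, 5 members and 53.1% of all genes were above 0, with medians of 0.13 and 0.072. Against replicate 2 alone, 6 members and 44.9% of all genes were above 0, with medians of 0.96 and -0.29. In the pair of TIA1 RIP replicate 2 and total RNA replicate 1, 3 members were above 0 and their median of -0.16 lay below that of all genes at 0.067. The class A gene stood at 1.25, the class E genes between 0.66 and 2.42, the class B genes between 0.14 and 0.48, the class D genes between 0.11 and 0.34 and CCNF at -0.52. The arrays of the groups did not overlap for 2 members, CCNA2 and CCNE2, both with TIA1 RIP above total RNA, and 19.4% of all genes had this pattern. CCNE2 was not well above background on total RNA replicate 2 and passed the filter only through TIA1 RIP, the group where it was higher. Its ratio of 2.42 and its place in these counts rest in part on a value that is not a measured level. No member had both TIA1 RIP arrays below both total RNA arrays, a pattern of 21.7% of all genes. None of the scalings and background corrections tried turned the sign of a member on this scale.

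**Figure D1:**
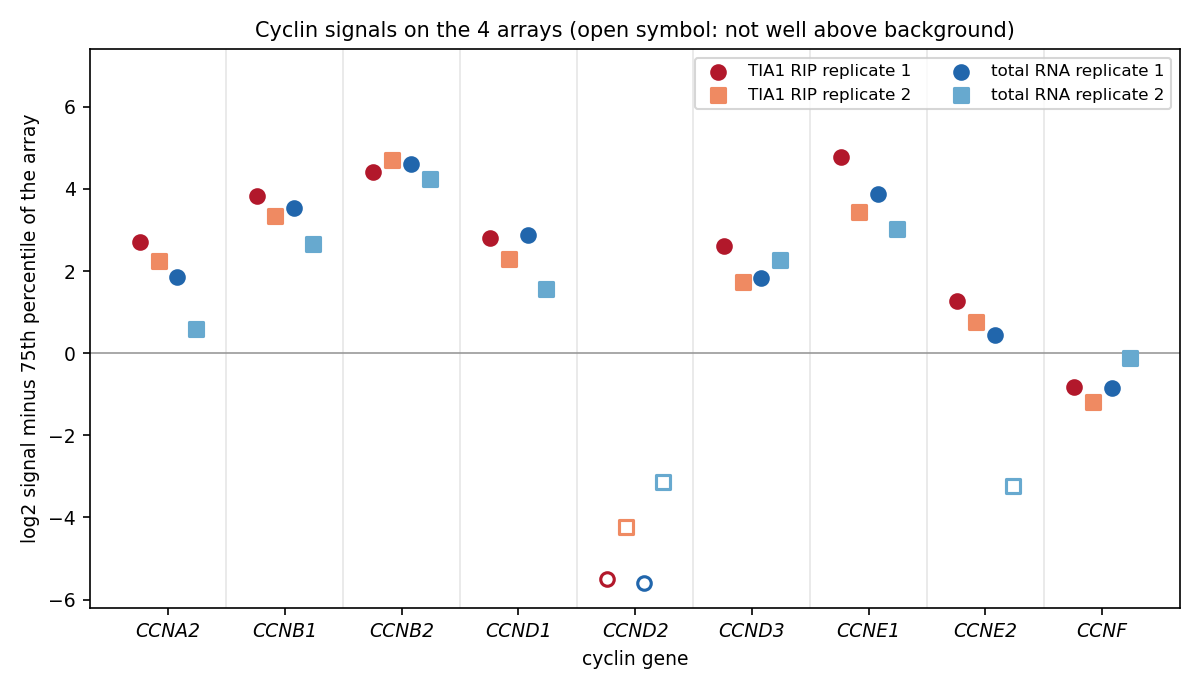
Log2 signal minus the 75th percentile of the array (y axis) for the 9 cyclin genes (x axis) on the 2 TIA1 RIP arrays (red) and the 2 total RNA arrays (blue), 1 symbol per array, open where no probe of the gene was well above background. CCNA2 and CCNE2 have both TIA1 RIP arrays above both total RNA arrays, CCND2 is open on all 4 arrays, and the groups overlap for the other members.

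The level of CCNA2, cyclin A2, was 2.71 and 2.25 in TIA1 RIP replicates 1 and 2, 1.87 in total RNA replicate 1 and 0.59 in total RNA replicate 2. Both immunoprecipitates thus lay above both inputs, and the gap between the total RNA arrays (1.28) was wider than the gap between the lower immunoprecipitate and the higher input (0.39). The group means were 2.48 ± 0.32 (SD, n = 2) and 1.23 ± 0.90 (SD, n = 2). The log2 ratio was 1.25 with a standard error of 0.85 and a 95% interval from -0.74 to 3.25 (adjusted p = 0.776 from limma). Against total RNA replicate 1 alone the ratio was 0.61, and against replicate 2 alone it was 1.89 (adjusted p = 0.052 from limma without total RNA replicate 1).

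CCNA2 was 1 of 3 members whose probe was spotted 10 times on each array. On the linear scale its 10 spots averaged 9892, 6058 and 2603 in TIA1 RIP replicates 1 and 2 and total RNA replicate 1, and 105 in total RNA replicate 2. The spots of an array differed by an SD of 0.049 to 0.13 log2 units, with the widest spread on the dim array. Spot noise was therefore far smaller than the distance between the total RNA arrays.

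**Figure D2:**
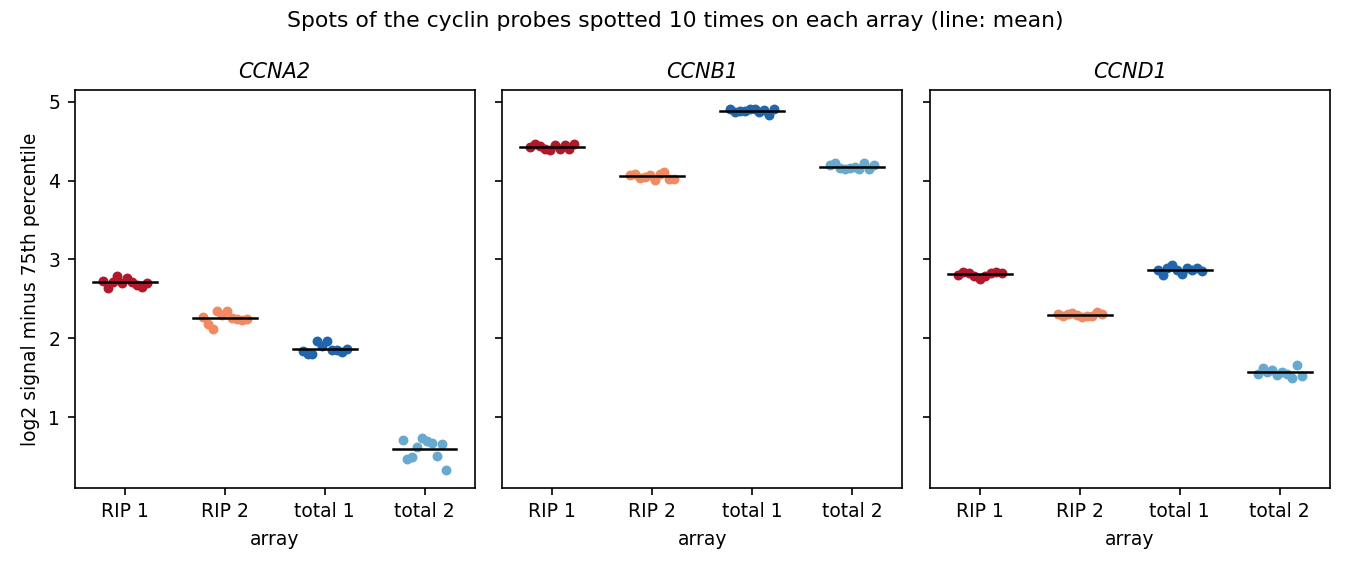
Log2 signal minus the 75th percentile of the array (y axis) for single spots of the CCNA2, CCNB1 and CCND1 probes that are spotted 10 times, on each of the 4 arrays (x axis), with the mean as a line. Spots of 1 array lie close together, with an SD of at most 0.13, while total RNA replicate 2 lies 1.28 below replicate 1 for CCNA2 and 1.30 below it for CCND1.

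For CCNB1, the mitotic cyclin B1, the level was 3.83 and 3.33 in TIA1 RIP, 3.54 in total RNA replicate 1 and 2.65 in replicate 2. Total RNA replicate 1 fell between the immunoprecipitates, and the log2 ratio was 0.48 with a standard error of 0.81 (95% interval -1.43 to 2.40, adjusted p = 0.888 from limma). It was 0.036 against total RNA replicate 1 and 0.93 against replicate 2. The probes of CCNB1 differed in direction. The probe spotted 10 times read 4.43 and 4.05 in TIA1 RIP against 4.89 and 4.18 in total RNA, a log2 ratio of -0.29, and its spots had an SD of 0.026 to 0.034. The other probe read 3.23 and 2.61 in TIA1 RIP against 2.20 and 1.12 in total RNA, a log2 ratio of 1.26. The value of the gene is the mean of both probes, which carry the same transcript identifier.

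For CCNB2, cyclin B2, the levels were 4.40 and 4.71 in TIA1 RIP and 4.61 and 4.23 in total RNA. The 4 arrays ran from 4.23 to 4.71 and the groups overlapped. The log2 ratio was 0.14 with a standard error of 0.78 (95% interval -1.70 to 1.97, adjusted p = 0.969 from limma), and against total RNA replicate 1 alone it was -0.056, with 0.33 against replicate 2.

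Among the D-type cyclins, CCND1 had levels of 2.81 and 2.30 in TIA1 RIP, 2.87 in total RNA replicate 1 and 1.57 in replicate 2. The first total RNA array was thus the highest of the 4 and the other the lowest. The log2 ratio was 0.34 with a standard error of 0.85 (95% interval -1.67 to 2.34, adjusted p = 0.927 from limma), and it turned from -0.31 against total RNA replicate 1 to 0.99 against replicate 2. The 10 spots of its probe had an SD of at most 0.05, with 1 spot on TIA1 RIP replicate 1 left out by its flag.

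CCND3 had levels of 2.61 and 1.73 in TIA1 RIP and 1.84 and 2.27 in total RNA, where replicate 2 was the higher. The immunoprecipitates were the highest and the lowest of the 4 arrays. The log2 ratio was 0.11 with a standard error of 0.81 (95% interval -1.80 to 2.02, adjusted p = 0.977 from limma), 0.33 against total RNA replicate 1 and -0.11 against replicate 2.

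CCND2 was not well above background on any array and was not tested. Its signals were 33.2 and 67.2 in TIA1 RIP and 14.7 and 7.97 in total RNA, between 1.25 and 2.26 times the lowest signal on the same array. No ratio is given for it.

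Of the E-type cyclins, CCNE1 had levels of 4.78 and 3.44 in TIA1 RIP and 3.89 and 3.01 in total RNA, and in both groups replicate 1 was the higher. The groups overlapped, and the log2 ratio was 0.66 with a standard error of 0.88 (95% interval -1.41 to 2.73, adjusted p = 0.855 from limma). It was 0.22 against total RNA replicate 1 and 1.099 against replicate 2.

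CCNE2 had levels of 1.27 and 0.77 in TIA1 RIP, 0.44 in total RNA replicate 1 and -3.24 in replicate 2. On the last array its probe was not well above background, with a signal of 7.41, or 1.16 times the lowest signal there, so that value is not a measured level. The log2 ratio of 2.42 had a standard error of 1.25 (95% interval -0.52 to 5.36, adjusted p = 0.776 from limma). Against total RNA replicate 1, where the probe was detected, the ratio was 0.59. Without total RNA replicate 1, CCNE2 passed the threshold of limma, as 14.2% of all genes did in the higher direction, but the total RNA value in that fit is the one below background, so no difference is read from it. The ratio was 1.11 with normexp background correction and 1.23 with no filter on dim probes. A further CCNE2 probe was well above background on 2 of the 4 arrays, did not pass the filter and had a log2 ratio of 0.035, with values on undetected arrays included.

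CCNF was the single member with a ratio below 0. Its levels were -0.81 and -1.20 in TIA1 RIP, -0.86 in total RNA replicate 1 and -0.11 in replicate 2. The groups overlapped, and the log2 ratio was -0.52 with a standard error of 0.80 (95% interval -2.41 to 1.36, adjusted p = 0.875 from limma). It was -0.15 against total RNA replicate 1 and -0.90 against replicate 2.

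The study compared enrichment with that of GAPDH mRNA, a glycolytic enzyme transcript used there as a non-target, at 2.5-fold. It required this both on arrays and in sequencing, and further tested CCNA2 and CCND1 by quantitative PCR against IgG immunoprecipitates. For CCNA2 it also used pulldown with RNA fragments and ribosome fractions after TIA1 knockdown. Only the arrays were used here. GAPDH stood at 6.49 and 6.69 in TIA1 RIP and at 7.67 and 9.63 in total RNA, a log2 ratio of -2.06 (adjusted p = 0.776 from limma), with -1.08 against total RNA replicate 1 and -3.04 against replicate 2. ACTB, the actin mRNA used as a further reference, had a ratio of -1.83, with -0.84 and -2.81 against the same arrays. On the group means, a gene with a ratio of 0 on the 75th percentile scale was therefore past 2.5-fold relative to GAPDH, which was not so against total RNA replicate 1, and 72.4% of all genes were past it on the group means, with 1.62% as far in the other direction.

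On this scale all 8 members that passed the filter were past 2.5-fold, with 22.4-fold for CCNE2, 9.93-fold for CCNA2, 6.59-fold for CCNE1, 5.83-fold for CCNB1 and 5.27-fold for CCND1. CCNB2 stood at 4.58-fold, CCND3 at 4.51-fold and CCNF at 2.90-fold. The value of CCNE2 includes the array on which it was not well above background. The member median was 2.47 on the log2 scale and that of all genes 2.02. By limma, 0 members were called (adjusted p from 0.221 to 0.241) and 0 had an unadjusted p-value under 0.05. Of all genes 0.0% were called in either direction, and an unadjusted p-value under 0.05 was reached by 19.5% in the higher and 0.759% in the lower direction. Without total RNA replicate 1, all 8 members were called by limma, as were 73.1% of all genes in the same direction. Without total RNA replicate 2, 3 members were past 2.5-fold. Against total RNA replicate 1, 45.98% of all genes were past it with TIA1 RIP replicate 1 and 39.98% with TIA1 RIP replicate 2.

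Each TIA1 RIP array was then set against each total RNA array. CCNA2 was the only member past 2.5-fold relative to GAPDH in all 4 pairs, as were 26.2% of all genes. Its enrichment was 4.06-fold and 2.57-fold against total RNA replicate 1, with TIA1 RIP replicates 1 and 2, and 38.4-fold and 24.3-fold against total RNA replicate 2. CCNE2 missed the fold in 1 pair, at 2.48-fold, and 2 of its pairs use the total RNA array on which it was below background. CCNB1, CCND3 and CCNE1 passed it in 3 pairs, and CCNB2, CCND1 and CCNF in 2.

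The pairs with total RNA replicate 2 held most of these values. With TIA1 RIP replicate 1, 5 members were past 2.5-fold against total RNA replicate 1 and 8 against replicate 2. Of all genes, 45.98% and 76.71% were past it in these pairs. With TIA1 RIP replicate 2 the counts were 1 and 8, beside 39.98% and 77.70% of all genes. With both TIA1 RIP arrays, 1 member was past it against total RNA replicate 1, where 31.1% of all genes were, and 8 against replicate 2, where 71.8% were. On the 75th percentile scale, 2 members, CCNA2 and CCNE2, were higher on both TIA1 RIP arrays than on total RNA replicate 1, as were 41.2% of all genes.

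**Figure D3:**
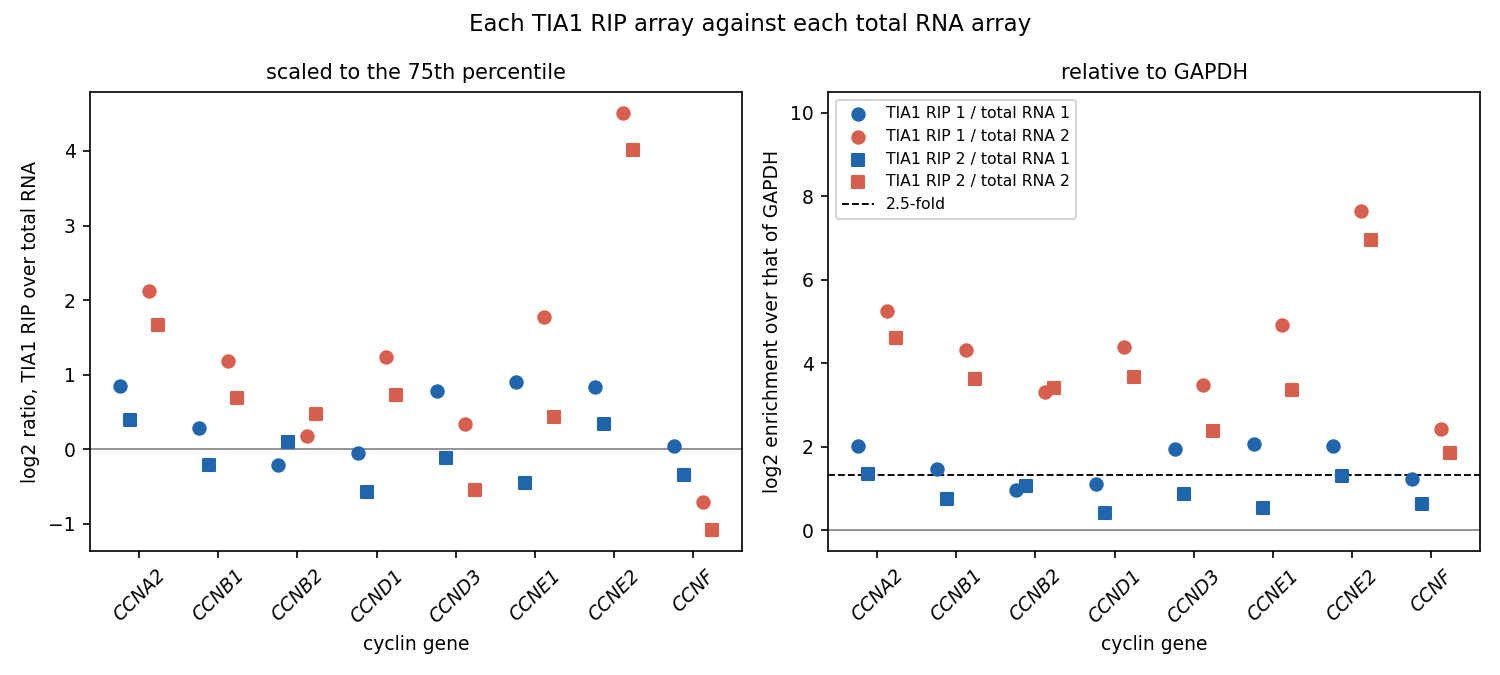
Log2 ratio of each TIA1 RIP array over each total RNA array for the 8 cyclins that passed the filter (x axis), scaled to the 75th percentile (left) and relative to GAPDH (right, with 2.5-fold as a dashed line). Ratios against total RNA replicate 2 (red) are past the line for all 8 members, those against replicate 1 (blue) reach it for 5 members with TIA1 RIP replicate 1 (circles) and 1 member with TIA1 RIP replicate 2 (squares).

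The total RNA arrays also differed by base content. Across the 11499 genes, the U content of the 3′ UTR and the log2 ratio had a Pearson's r of 0.083 against total RNA replicate 1 and 0.63 against replicate 2. For the GC content of the whole transcript, r was -0.058 and -0.72. These genes share the same 4 arrays and are not independent replicates, so the values are descriptions. They include genes that were not well above background on total RNA replicate 2, whose ratios against that array are not measured ones. Among the members the transcripts ranged in GC content from 34.6% in CCNE2 and 41.9% in CCNA2 and CCNB1 to 57.3% in CCNF and 60.0% in CCND3. CCNE2 was not well above background on total RNA replicate 2, so its value of 4.26 there is not a measured ratio. Of the members detected on that array, CCNA2 had the highest log2 ratio at 1.89, and CCND3 and CCNF were the only members below 0, at -0.11 and -0.90. CCNB1 and CCNB2, with the most U in their 3′ UTRs, stood at 0.93 and 0.33. Against total RNA replicate 1 the members lay between -0.31 (CCND1) and 0.61 (CCNA2). The part of base content in the cyclin ratios was not tested.

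**Figure D4:**
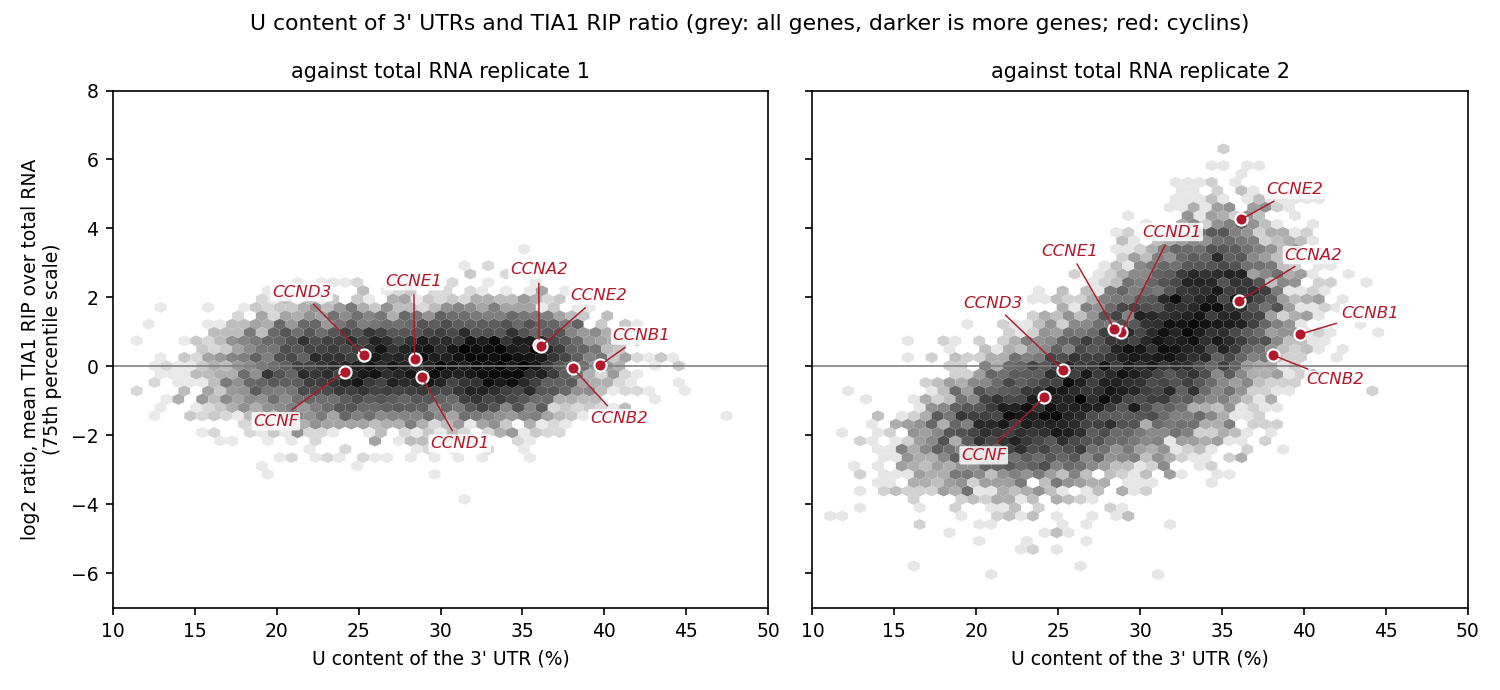
U content of the 3′ UTR in percent (x axis) and log2 ratio of the mean TIA1 RIP level over total RNA replicate 1 (left) or replicate 2 (right) on the 75th percentile scale (y axis), for 11499 genes in grey and the 8 tested cyclins in red. The ratio rises with U content against total RNA replicate 2 (r = 0.63) and shows little slope against replicate 1 (r = 0.083), and the cyclins spread more widely on the right, where CCNE2 was not well above background on the total RNA array.

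The other genes of the cyclin machinery were taken from lists of 47 genes in 6 groups, of which 46 were on the array and 43 passed the filter. By limma 0 of the 43 were called in either direction, and 1, CDK1, had an unadjusted p-value under 0.05. The lists had 31 genes above 0 and 12 below 0, with a median log2 ratio of 0.47 beside -0.036 for all genes. CCNJ, CDKN1A, FBXW7, FBXO4, BTRC, FBXO5 and RB1 had no probe detected on total RNA replicate 2, and CCNG2 none on either total RNA array. These genes passed the filter only through TIA1 RIP and all lay above 0, so their ratios are not measured ones. Against total RNA replicate 1 alone, 26 of the 43 were above 0 with a median of 0.28. Without total RNA replicate 1, limma called 8 of the 43 higher and 1, E2F2, lower, where 14.2% of all genes were called higher and 15.7% lower. Of these 9, 5 had no probe detected on total RNA replicate 2.

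Of the catalytic partners, CDK1, the kinase of cyclins A and B, had levels of 4.18 and 4.20 in TIA1 RIP and 2.87 and 0.88 in total RNA. Its groups did not overlap, and its log2 ratio was 2.31 with a standard error of 0.93 (unadjusted p = 0.0411, adjusted p = 0.776, limma), with 1.32 against total RNA replicate 1. With no filter on dim probes, which brings in its other probes, the ratio was 0.065. CDK2, the partner of cyclins E and A, had a ratio of 0.11, and CDK4, a partner of the D-type cyclins, one of 0.37. They were 0.35 and 0.75 against total RNA replicate 1. CDK6, the other D-type partner, stood at 3.10 and 2.38 in TIA1 RIP and at 3.79 and -0.81 in total RNA. Its ratio of 1.25 became -1.05 against total RNA replicate 1. The list of partners and adaptors had a median of 0.49 (0.44 against total RNA replicate 1), from -0.16 for CKS1B, a small subunit that binds the kinases, to CDK1.

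Among the other cyclins 12 of 15 passed the filter, with a median of 0.47, or 0.20 against total RNA replicate 1. CCNG2, an atypical cyclin linked to cell cycle arrest, was the highest by its fitted ratio. It was not well above background on either total RNA array and passed the filter only through TIA1 RIP. The fitted ratio of 2.01 (adjusted p = 0.776 from limma) is therefore not a measured ratio. That ratio was 0.59 with normexp background correction and 0.93 with no filter on dim probes. The level of CCNG2 was -1.76 and -0.67 in TIA1 RIP. CCNL1, a cyclin of transcription and splicing kinases, was the lowest at -1.18. It had 2 probes detected on the other arrays and 1 on total RNA replicate 2. With only probes detected on all 4 arrays its ratio was -2.23. The inhibitors had a median of 0.54 (0.84 against total RNA replicate 1), from -0.16 for CDKN2A, which encodes the CDK4 and CDK6 inhibitor p16, to 1.02 for CDKN1C, which encodes p57. The degradation factors had a median of 1.04 (0.39 against total RNA replicate 1), from -1.24 for FZR1, an activator of the anaphase-promoting complex, to 2.52 for FBXO5, an inhibitor of that complex. The median of 1.04 is the ratio of FBXO4, which, like FBXW7, BTRC and FBXO5, had no probe detected on total RNA replicate 2. It is therefore not a measured value. The degradation factors detected on that array were SKP2 at 1.12, CDC20 at -0.75 and FZR1 at -1.24.

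The enzymes that switch the kinases on and off had a median of 0.066 (0.29 against total RNA replicate 1), from -0.91 for PKMYT1 to 0.77 for WEE1, both inhibitory kinases of CDK1. The transcription control genes had a median of 0.22, which turned to -0.43 against total RNA replicate 1 with 2 of 7 above 0. They ran from -1.82 for E2F1, an activator of S phase genes, to 2.82 for RB1, the retinoblastoma gene. RB1 and FBXO5 were not detected on total RNA replicate 2, and against replicate 1, where they were, their ratios were 0.55 and 0.50.

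**Figure D5:**
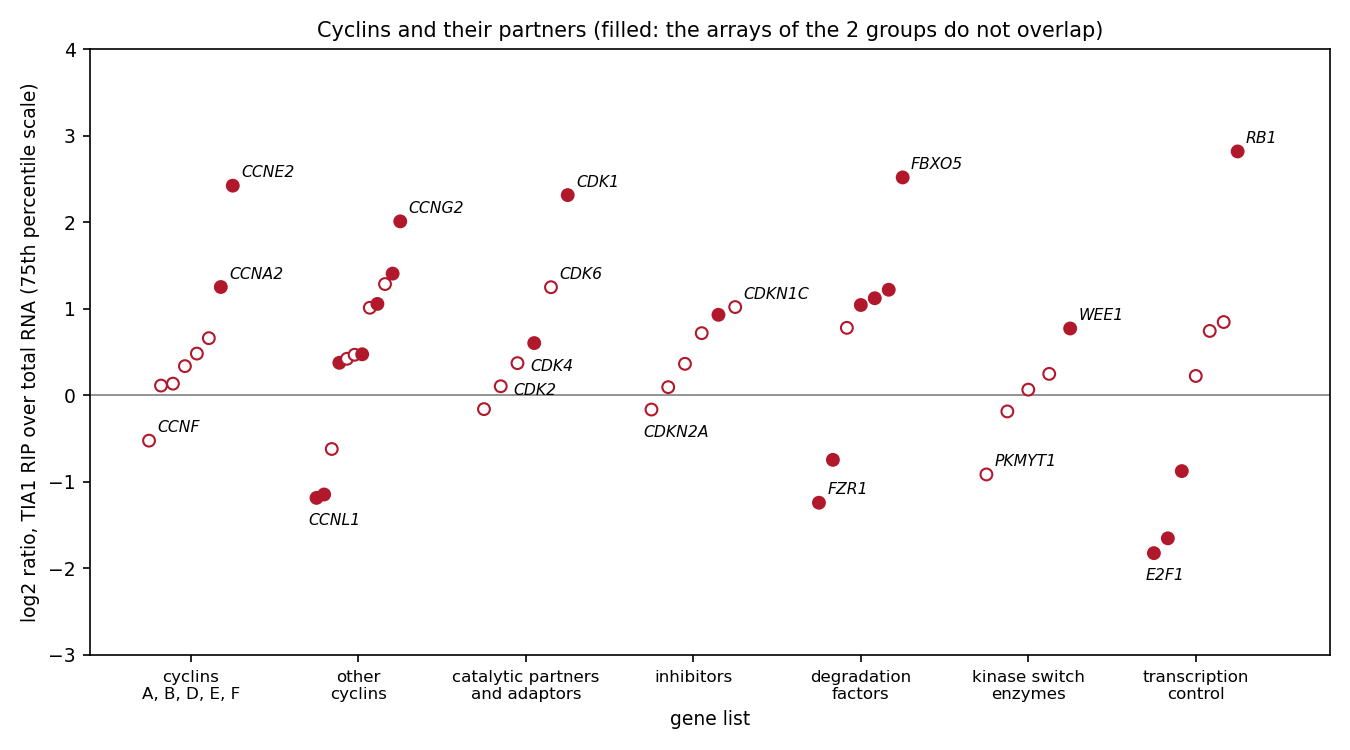
Log2 ratio of the TIA1 RIP mean over the total RNA mean on the 75th percentile scale (y axis) for the 8 tested cyclins and the 43 tested genes of the 6 lists (x axis), filled where the arrays of the groups do not overlap. Values run from -1.82 (E2F1) to 2.82 (RB1), and no gene shown was called by limma. No probe of CCNE2, CCNJ, CDKN1A, FBXW7, FBXO4, BTRC, FBXO5 or RB1 was well above background on total RNA replicate 2. The same held for CCNG2 on both total RNA arrays, so these points are not measured ratios.

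Finally, the genes with levels most like those of CCNA2 were found among 9236 genes detected on all 4 arrays, by the Euclidean distance over the 4 levels in log2 units. The nearest were RAMAC at 0.26, UBQLN2 at 0.29, TAF12 at 0.34, PHF5A at 0.35 and DHX35 at 0.35. Their own log2 ratios lay between 1.13 (RAMAC) and 1.36 (PHF5A), and that of CCNA2 was 1.25. With 4 arrays this likeness describes the arrays alone.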

How the data were processed

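The authors deposited the scanner output of 4 single-colour arrays from Agilent Feature Extraction 10.7.1.1, which holds the background-subtracted intensity of every spot in linear units, with no scaling between arrays. The deposited files also hold flags, other columns that were used as filters. The authors worked further in GeneSpring, with the scaling and test not given in the sources used here. Whether the total RNA came from whole cells or cytoplasm is likewise not given. All arrays lay on 1 slide in 1 scan.

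Flagged and control spots were left out, log2 signals were reduced by the 75th percentile of the array, and spots were averaged per probe. A probe counted as detected when a share of 0.5 or more of its unflagged spots exceeded background well, and was kept if detected on both arrays of a group (20106 probes). Probe identifiers were matched to symbols through RefSeq and GENCODE names (34510 of 50599 probes), and kept probes of a symbol were averaged to 13039 genes. limma 3.58.1 in R 4.3.3 tested TIA1 RIP against total RNA over all genes, with a Benjamini-Hochberg threshold of 0.05, on this scale and after subtraction of GAPDH. The fit was run on simulated data with less spread than these arrays had, which checks the code and not what could be detected here. p-values measure only the spread between these arrays, since nothing says that replicates were separate cultures.

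The cyclins and lists were chosen with earlier results of these data known. The text names all members, GAPDH, ACTB, CDK1, CDK2, CDK4, CDK6, the extremes of each list and the 5 genes nearest CCNA2. It also names the listed genes with no probe detected on total RNA replicate 2, and the degradation factors detected there. Base content and 3′ UTRs came from GENCODE canonical transcripts. Alternatives covered background correction, scaling, detection filter, probe choice, reference gene, fold, replicate block and each array left out.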

Additional observations from a re-analysis of the deposited data

How the results depend on the processing

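With 2 arrays per group, leaving out 1 leaves a lone array that is assumed to vary like the others. A slide or scan block could not be run, since 1 slide and 1 scan held all arrays. Dim signal on total RNA replicate 2 limits what can be read there.

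The count of cyclins called by limma on the 75th percentile scale was 0, and ranged from 0 to 1 with an array left out. The count past 2.5-fold relative to GAPDH was 8, beside 72.4% of all genes. It fell to 1 against the median of all genes (which put CCNF at -0.49) and to 3 with quantile normalization. With an array left out it ranged from 3 to 8. The share of all genes was not counted in those settings, so the lower counts are no result about the cyclins. The count called relative to GAPDH ranged from 0 to 8, and that of the 43 listed genes from 0 to 9. These high counts came without total RNA replicate 1, where the call of CCNE2 rests on a signal below background. The replicate number as a block left 0 members called and 8 past 2.5-fold, while 57 of all genes were higher and 299 lower. Deviations of same-numbered arrays correlated at 0.45, and 2 pairs do not show that the numbers pair the samples.

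With an array left out, the log2 ratio ran from -0.056 to 0.33 for CCNB2, from -0.31 to 0.99 for CCND1, from -0.33 to 0.56 for CCND3, from -0.011 to 1.33 for CCNE1, from -0.21 to 0.42 for CDK2, from -0.0073 to 0.75 for CDK4, from -1.05 to 3.55 for CDK6, from -0.33 to 2.37 for CDKN1C, from -0.98 to 0.65 for CDKN2A and from -0.40 to 0.083 for CKS1B. The brightest probe gave -0.29 for CCNB1. CDKN2A and CKS1B turned to 0.25 and 0.30 with normexp background, to 0.14 and 0.52 with quantile normalization, which also gave 0.069 for PKMYT1, and to 0.14 and 0.15 with the percentile over probes detected on all 4 arrays, a setting chosen after seeing the data. The cause was not tested for any of these. CCNB1 ran from 0.036 to 0.93 with an array left out. The fitted ratio of CCNG2, 2.01, was 0.59 with normexp background. In the settings that left all arrays in, the direction turned in 1 of 63 member values on the 75th percentile scale and 1 of 79 relative to GAPDH.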
